A study of Mus musculus with 3 samples.

Results

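Wnt signals reach the nucleus through beta-catenin, and 7 genes of that nuclear step and of its immediate feedback were followed here through the cells of mouse skin. The genes were Lef1, Tcf7, Tcf7l1 and Tcf7l2 (the LEF/TCF transcription factors), Ctnnb1 (beta-catenin), and Axin2 and Nkd1 (inhibitors of the pathway that it induces). They were taken by symbol from the deposited count matrices, and all 7 were found among the 31053 genes listed. Skin of C57BL/6 mice, all 7 weeks old, was profiled by single-cell RNA sequencing to study hair growth, and each agent has a single library. The agents are named control, Shi-Bi-Man and metformin (a drug used in diabetes), and the labels state no dose, route or number of animals. The control and metformin libraries were analysed, and expression in the Shi-Bi-Man library was not analysed here. With 1 library per agent no difference between agents was tested, and a difference between agents cannot be told apart from a difference between the animals or libraries.

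When no Wnt ligand is present, a destruction complex built on Axin and Apc marks beta-catenin for degradation, and LEF/TCF factors with Groucho/Tle corepressors keep target genes low. Ligand binding spares beta-catenin, which enters the nucleus and joins the LEF/TCF factors to raise transcription. In the hair follicle the pathway is known for its part in starting follicle growth, for specifying the hair shaft in the matrix, and for the inductive state of the dermal papilla, the mesenchymal cells at the follicle base. Tcf7l1 (also called TCF3) is known as a repressor in follicle stem cells, and Lef1 as a factor of matrix cells and dermal papilla.

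After filtering, 9681 control cells with a median of 3557 unique molecular identifiers (UMIs, counted mRNA molecules) and 8817 metformin cells with a median of 5562 UMIs remained. They fell into 31 clusters, which were formed without the 7 genes and without the other Wnt genes listed below, and 28 of the clusters were named "-like" from marker genes. Levels are a gene's UMIs relative to all UMIs of a class in 1 library, scaled to 1000000 (CPM), and brackets give 95% exact Poisson intervals. All intervals cover counting error only and not differences between animals. Of the barcodes deposited for both libraries 41 were shared, 27 of them among the kept cells. The hair matrix-like cluster held 811 metformin cells and 15 control cells and the inner root sheath-like cluster held 84 and 1, so their levels could be read in the metformin library alone, and a cluster that comes mostly from 1 library may reflect that library. The hair matrix-like cluster was led by Krt35 and S100a3, which are on the hair cortex or cuticle marker list. With metformin clustered on its own, 182 cells formed a separate hair cortex or cuticle-like cluster. Levels called hair matrix-like here are therefore those of matrix-like and hair shaft-like cells together. The dermal papilla-like class, with 342 control and 320 metformin cells, was made of a cluster led by Hhip, Wif1 and Rspo3 (83 and 305 cells) and a cluster led by Slc26a7, Notum and Crabp1 (259 and 15 cells). All 12 dermal papilla markers had UMIs in the class in both libraries, but the class is mostly a different cluster in each.

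The promoters of Lef1, Tcf7, Axin2 and Nkd1 are shown because these 4 genes were lower together in metformin in 2 follicle classes described below. The second RefSeq promoter of Tnfrsf19, a Wnt-responsive receptor gene that was lower in the same classes, is shown for comparison. It was taken from the genes with a match to the motif given below, and other genes lower in these classes are not shown. Of the 4 Lef1 windows and the 2 Tcf7 windows only the first is shown. Each window runs from 250 bases before to 50 bases after a RefSeq transcription start on build GRCm38.p6, is written 5′ to 3′ on the gene's strand, and has matches to the TCF/LEF motif CTTTGAT, or ATCAAAG on the opposite strand, in capitals.
Lef1, chr3:131110047-131110346, plus strand: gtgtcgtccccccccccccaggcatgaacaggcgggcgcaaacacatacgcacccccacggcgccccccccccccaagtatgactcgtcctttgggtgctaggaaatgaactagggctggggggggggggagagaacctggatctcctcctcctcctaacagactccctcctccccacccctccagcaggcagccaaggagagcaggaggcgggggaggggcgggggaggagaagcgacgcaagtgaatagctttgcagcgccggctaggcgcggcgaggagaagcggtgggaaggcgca
Tcf7, chr11:52282965-52283264, minus strand: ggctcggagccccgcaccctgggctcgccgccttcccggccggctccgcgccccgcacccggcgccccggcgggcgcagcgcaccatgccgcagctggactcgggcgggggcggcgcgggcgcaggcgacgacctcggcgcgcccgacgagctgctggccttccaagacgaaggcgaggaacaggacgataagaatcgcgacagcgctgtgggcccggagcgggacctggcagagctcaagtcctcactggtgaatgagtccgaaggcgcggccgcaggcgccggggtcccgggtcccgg
Axin2, chr11:108920099-108920398, plus strand: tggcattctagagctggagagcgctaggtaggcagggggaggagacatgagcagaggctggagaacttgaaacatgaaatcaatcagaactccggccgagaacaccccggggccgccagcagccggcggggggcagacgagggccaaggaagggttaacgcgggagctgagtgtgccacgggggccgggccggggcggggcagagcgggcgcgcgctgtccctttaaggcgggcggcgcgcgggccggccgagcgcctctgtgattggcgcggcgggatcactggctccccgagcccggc
Nkd1, chr8:88527383-88527682, plus strand: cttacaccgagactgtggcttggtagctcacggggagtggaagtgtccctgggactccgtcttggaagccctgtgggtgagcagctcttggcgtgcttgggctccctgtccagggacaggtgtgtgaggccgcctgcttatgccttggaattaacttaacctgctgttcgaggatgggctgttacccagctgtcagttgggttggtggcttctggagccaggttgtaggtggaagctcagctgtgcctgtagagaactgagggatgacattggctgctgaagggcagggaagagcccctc
Tnfrsf19, chr14:61037938-61038237, minus strand: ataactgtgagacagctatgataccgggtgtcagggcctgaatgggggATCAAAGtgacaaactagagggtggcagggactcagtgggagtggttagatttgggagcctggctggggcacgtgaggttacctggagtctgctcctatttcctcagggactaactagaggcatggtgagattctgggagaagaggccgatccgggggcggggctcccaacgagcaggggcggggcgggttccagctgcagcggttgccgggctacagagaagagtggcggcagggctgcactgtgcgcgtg

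The 7 genes matched 13 RefSeq windows, and 0 of the 13 held the motif on either strand, beside 3.729% of all 32851 mouse windows. Among the 13 windows found for the 20 other target or feedback genes, 3 held it, those of Sp5, Edar and Tnfrsf19, each with 1 match. Tnfrsf19 has 2 windows, of which the first held no match. In its second window the match starts 202 bases before the transcription start. The absence of a match says only that these letters are not in these windows. In GENCODE M21 on GRCm38, Lef1 lies at chr3:131110471-131224356 (plus strand), Axin2 at chr11:108920349-108950783 (plus), Tcf7 at chr11:52252371-52283014 (minus) and Nkd1 at chr8:88521354-88594884 (plus). The RefSeq start of the Nkd1 window lies inside the GENCODE gene. Tcf7l1 lies at chr6:72626378-72789254 (minus), Tcf7l2 at chr19:55741820-55933654 (plus) and Ctnnb1 at chr9:120929216-120960507 (plus). All 7 are annotated as protein-coding.

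Lef1 was concentrated in the dermal papilla-like and hair matrix-like cells. Its level in dermal papilla-like cells was 396 CPM (355 to 441) in control and 388 CPM (354 to 424) in metformin. In the metformin library it was 203 CPM (192 to 215) in hair matrix-like and 135 CPM (106 to 168) in inner root sheath-like cells. The 15 control cells of the hair matrix-like cluster held 4 Lef1 UMIs, or 38.2 CPM (10.4 to 97.9). Next among keratinocytes and follicle mesenchyme came the class with markers of follicle stem cells or outer root sheath, at 40.2 CPM (28.7 to 54.8) in control and 6.56 CPM (3.82 to 10.5) in metformin. The dermal sheath-like cells, which wrap the follicle, followed at 29.7 CPM (19.2 to 43.9) and 6.47 CPM (3.34 to 11.3), within counting error of the stem or outer root sheath-like class in each library. Outside the follicle, T cell-like cells had 4.26 and 9.14 CPM, which in metformin overlaps both of these classes, and melanocyte-like cells had 2 UMIs in each library. Fibroblast-like cells, the bulk of the dermis, were near 0 with 4 UMIs in 4021 control cells and 8 UMIs in 1497 metformin cells. Interfollicular basal-like cells held 3 UMIs in 1029 control cells and 1 UMI in 1631 metformin cells.

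Per cell, 55.0% of control and 68.1% of metformin dermal papilla-like cells had a Lef1 UMI, as did 58.9% of the hair matrix-like cells. Because the classes differ in depth, cells were also thinned to 1500 UMIs, which gave 42.2% and 39.7% for dermal papilla-like cells and 25.9% for hair matrix-like cells. Cells with fewer UMIs were left out of thinned shares, and unevenly. These were 79 of 342 control and 3 of 320 metformin dermal papilla-like cells, and 121 of 312 and 45 of 161 macrophage-like cells. In macrophage-like cells, which should lack follicle transcripts, 0.641% of control and 0.621% of metformin cells had a Lef1 UMI at median depths of 1850.5 and 2067 UMIs, compared with 2205.5 and 3910 in dermal papilla-like cells. The shares in fibroblast-like cells (0.0995% and 0.468%) lay below that background. Of the stem or outer root sheath-like cells 17.9% of control and 2.41% of metformin cells had a Lef1 UMI, and after thinning 6.84% and 0.828%. The corresponding thinned shares of macrophage-like cells were 0% (0 of 191 cells, with an upper limit of 1.91%) and 0.862%. The metformin share rests on 1 of 116 cells (0.0218% to 4.71%). It is too uncertain to show whether Lef1 in the metformin stem or outer root sheath-like cells exceeded background. Interfollicular basal-like cells of metformin had a thinned share of 0.0615% (1 of 1625 cells).

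Tcf7 (TCF1), best known from T cells, was highest in T cell-like cells at 141 CPM (123 to 160) in control and 154 CPM (136 to 174) in metformin. A UMI of Tcf7 was present in 27.8% and 29.0% of these cells, compared with 0.321% and 0.621% of macrophage-like cells, and after thinning in 17.3% and 21.4%. In control the stem or outer root sheath-like cells were next at 87.5 CPM (70.1 to 108), then dermal papilla-like cells at 66.6 CPM (50.3 to 86.5) and dermal sheath-like cells at 49.9 CPM (36.0 to 67.5), with overlapping intervals between neighbours. In metformin these classes stood at 12.3, 22.2 and 10.8 CPM, and the classes after T cell-like were hair matrix-like at 37.4 CPM (32.7 to 42.5) and inner root sheath-like at 36.7 CPM (22.7 to 56.1). Interfollicular basal-like cells stood at 8.11 CPM (6.24 to 10.4) in control and 7.63 CPM (6.12 to 9.41) in metformin.

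Axin2, a scaffold of the destruction complex and a widely used readout of Wnt activity, was spread more evenly. T cell-like cells stood at 54.8 CPM (44.1 to 67.4) and 48.0 CPM (38.3 to 59.4). Melanocyte-like cells had 79.0 CPM (36.1 to 150) in control, the highest value of a named class there. It came from 9 UMIs in 51 cells, which does not separate them from the T cell-like class. Hair matrix-like cells of metformin had 36.7 CPM (32.1 to 41.8), fibroblast-like cells 30.3 and 28.2 CPM, dermal papilla-like cells 25 and 31.7 CPM, and interfollicular basal-like cells 17.2 and 22.0 CPM. Within the fibroblast-like class 1 cluster, led by Stc1 and Igfbp2, carried 94.8 CPM (77.7 to 114) in control and 107 CPM (79.2 to 141) in metformin. No UMI of Axin2 was found in 281 control and 178 metformin dendritic cell-like cells.

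Nkd1, which binds Dishevelled and dampens the signal, was highest outside the follicle epithelium. An unnamed cluster of 33 control and 35 metformin cells, led by Actg2 and Des, held 118 CPM (77.8 to 172) and 156 CPM (108 to 218). Among the named classes vascular smooth muscle or pericyte-like cells held 83.5 CPM (58.5 to 116) in control and 86.0 CPM (62.0 to 116) in metformin, and Schwann cell-like cells held 75.6 and 79.8 CPM. Dermal papilla-like cells followed at 67.8 CPM (51.3 to 87.8) and 59.4 CPM (46.7 to 74.4), which overlaps both. Dermal sheath-like cells had 53.5 and 23.2 CPM and fibroblast-like cells 30.4 and 23.0 CPM. The Stc1 and Igfbp2 cluster of fibroblast-like cells had 63.2 and 65.5 CPM. In keratinocytes Nkd1 was found in the stem or outer root sheath-like class (19.1 CPM in control and 1.16 CPM in metformin) and in hair matrix-like cells (8.73 CPM in metformin), with 1 UMI in all interfollicular basal-like cells of control and 0 in those of metformin.

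**Figure D1:**
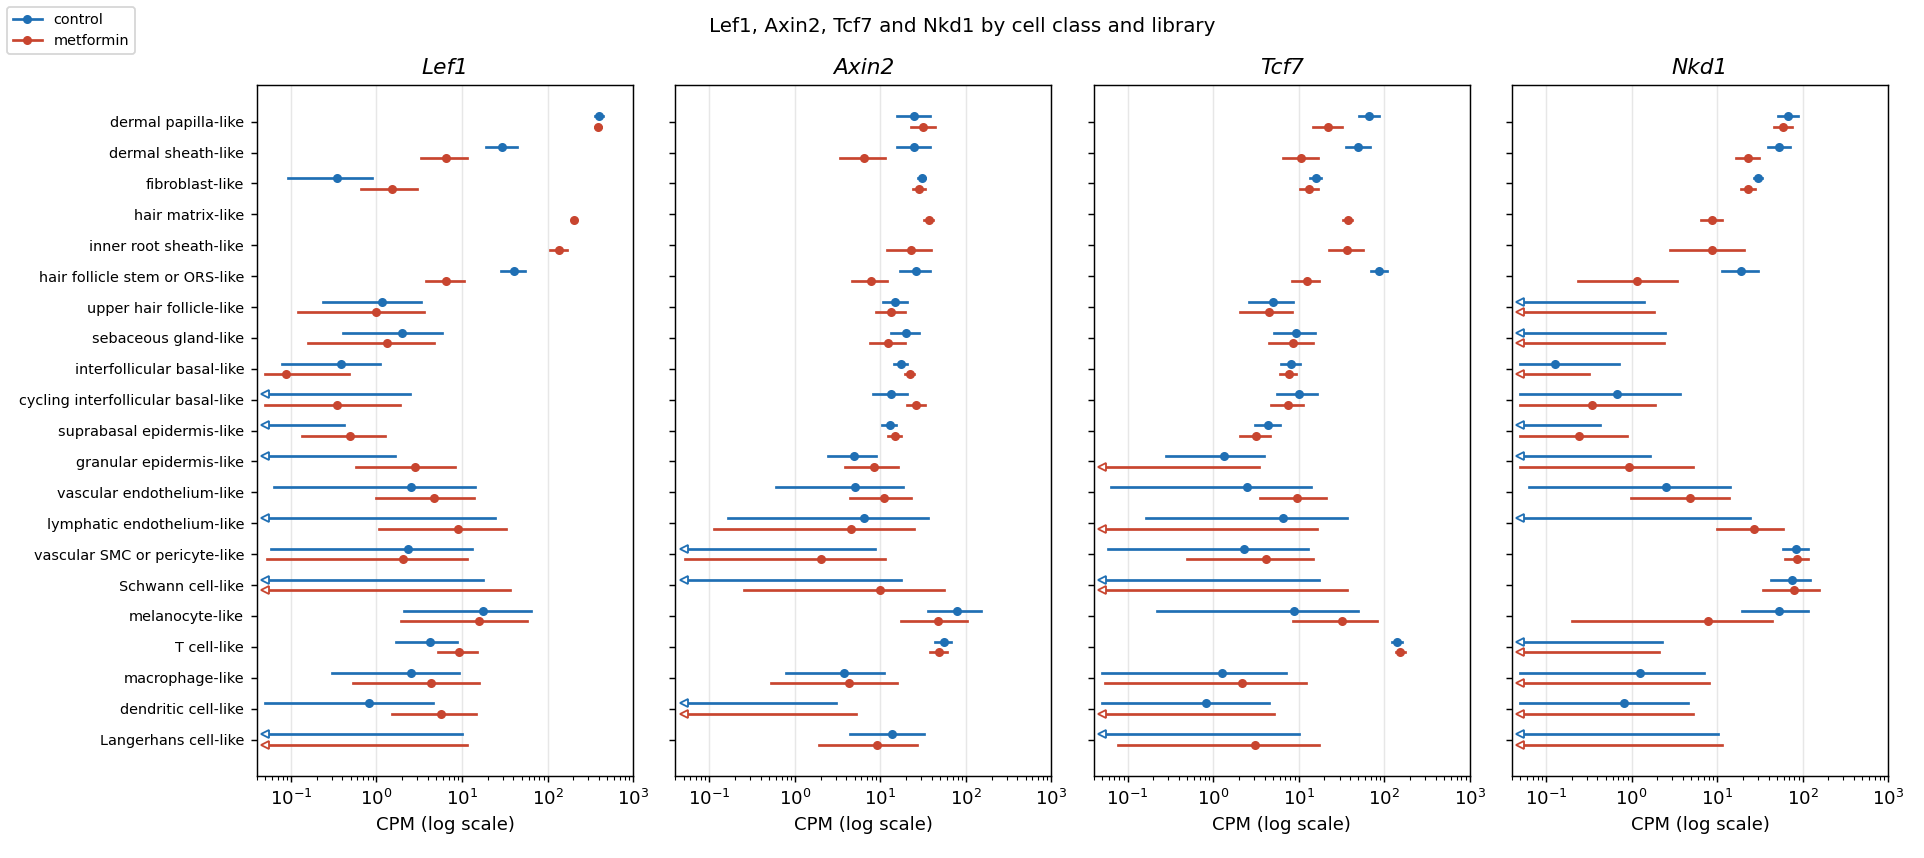
Levels of Lef1, Axin2, Tcf7 and Nkd1 in CPM (horizontal log axis) in 21 named cell classes (vertical), for the control (blue) and metformin (red) library. Points are levels from summed UMIs, bars are 95% exact Poisson intervals drawn from 0.05 CPM upward, and open triangles mark classes with 0 UMIs. Classes with fewer than 40 cells in a library are not drawn. Lef1 peaks in dermal papilla-like cells (396 and 388 CPM), and Tcf7 in T cell-like cells (141 and 154 CPM).

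Tcf7l1 was found in mesenchyme-like, endothelium-like and stem or outer root sheath-like classes and was close to absent from the epidermis-like classes. It stood at 65.4 and 69.5 CPM in dermal sheath-like, 64.2 and 88.7 CPM in dermal papilla-like, 68.0 and 52.4 CPM in vascular endothelium-like and 39.0 and 42.7 CPM in fibroblast-like cells (control and metformin, respectively). The first 3 of these classes overlapped in control. In metformin the dermal papilla-like interval (73.0 to 107) overlapped that of the dermal sheath-like class (58.0 to 82.6) and met that of the vascular endothelium-like class (36.1 to 73.6) at its edge. Among keratinocytes the stem or outer root sheath-like cells led at 29.2 CPM (19.5 to 41.9) and 36.7 CPM (29.7 to 44.8). Hair matrix-like cells of metformin had 2.43 CPM (1.36 to 4.0), and interfollicular basal-like cells had 4 UMIs in each library.

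Tcf7l2 (TCF4) was highest in dermal sheath-like cells, at 226 CPM (195 to 260) in control and 310 CPM (285 to 336) in metformin. Stem or outer root sheath-like cells were second at 137 CPM (115 to 162) and 201 CPM (184 to 219), followed by vascular endothelium-like cells at 121 and 159 CPM. Dermal papilla-like (92.7 and 135 CPM) and fibroblast-like cells (93.5 and 123 CPM) overlapped within each library. Interfollicular basal-like cells had 38.4 and 35.7 CPM, hair matrix-like cells 48.5 CPM in metformin, and T cell-like cells 12.2 and 18.8 CPM.

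Ctnnb1, whose protein also joins cadherins at cell contacts, was found in every class. Control levels were highest at 474 CPM (429 to 523) in dermal papilla-like and 463 CPM (361 to 584) in lymphatic endothelium-like cells. In metformin the highest of the classes with at least 50 cells was the stem or outer root sheath-like class at 518 CPM (491 to 547), followed by hair matrix-like cells at 430 CPM (414 to 446) and vascular endothelium-like cells at 418 CPM (369 to 472). The lowest levels among the named classes were in dendritic cell-like cells, at 70.9 CPM (56.8 to 87.5) and 88.7 CPM (68.1 to 113), and in Langerhans cell-like cells, at 74.1 and 89.4 CPM.

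**Figure D2:**
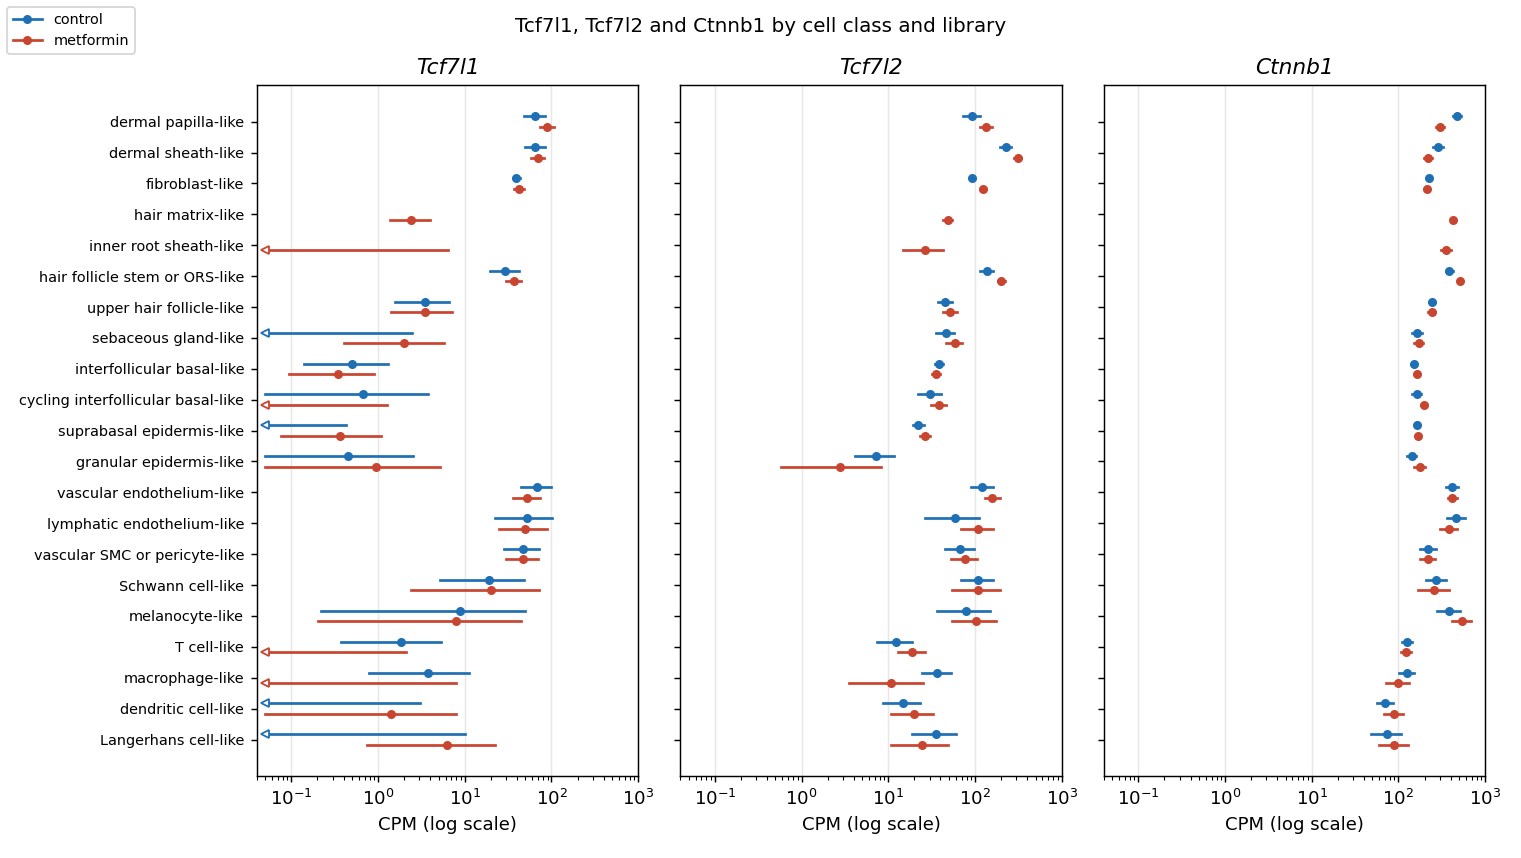
Levels of Tcf7l1, Tcf7l2 and Ctnnb1 in CPM (horizontal log axis) in the same 21 cell classes, control in blue and metformin in red, with 95% exact Poisson intervals drawn from 0.05 CPM upward and open triangles for 0 UMIs. Tcf7l1 and Tcf7l2 are high in dermal sheath-like cells (65.4 and 226 CPM in control), and Ctnnb1 is present in all classes.

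Within the dermis, the dermal papilla-like cells differed from fibroblast-like cells most in Lef1. In control, 4 of 7 members were at least 2-fold higher in the dermal papilla-like class with an interval that excluded 1, beside 16.1% of all genes tested. These were Lef1 at 333 against 4 UMIs (1156-fold, 447 to 4269), Tcf7 at 4.2-fold (3.06 to 5.70), Nkd1 at 2.23-fold (1.66 to 2.96) and Ctnnb1 at 2.12-fold (1.91 to 2.36). In metformin there were 3 of 7, beside 22% of all genes. They were Lef1 (253-fold, 127 to 590), Nkd1 (2.58-fold, 1.91 to 3.48) and Tcf7l1 (2.08-fold, 1.64 to 2.62). Axin2 did not pass in either library, with ratios of 0.824 (0.504 to 1.28) and 1.12 (0.772 to 1.60). The fibroblast-like class was not uniform, and its Stc1 and Igfbp2 cluster held more Axin2 than the class as a whole. Nkd1 in that cluster, at 63.2 and 65.5 CPM, was within counting error of the dermal papilla-like level. Lef1 was also higher in dermal papilla-like than in dermal sheath-like cells, by 13.3-fold (8.87 to 20.9) in control, beside 9.45% of all genes, and by 60.0-fold (34 to 117) in metformin, beside 20.9%. In metformin Axin2 (4.90-fold, 2.52 to 10.3), Nkd1 (2.56-fold, 1.74 to 3.82) and Tcf7 (2.06-fold, 1.12 to 3.85) were higher as well. Tcf7l2 went the other way, at 0.411 (0.311 to 0.537) and 0.434 (0.364 to 0.516) of its dermal sheath-like level, beside 6.11% and 7.39% of all genes.

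Several other genes of the pathway differed between dermal papilla-like and fibroblast-like cells in both libraries. These values do not set the class apart from other follicle classes. Wif1 was also among the leading genes of the dermal sheath-like cluster when control was clustered on its own. In control the class is mostly the cluster led by Slc26a7, Notum and Crabp1. Notum, a secreted enzyme that inactivates Wnt ligands, was at 530 CPM in dermal papilla-like and 4.62 CPM in fibroblast-like control cells, and at 207 and 5.36 CPM in metformin. Wif1, a secreted Wnt inhibitor, was at 371 against 20.5 CPM in control and 2451 against 31.0 CPM in metformin. Bmp4 was at 421 against 53.2 CPM and 333 against 39.5 CPM. Ccnd1 (cyclin D1) and Myc were lower in dermal papilla-like cells, Ccnd1 at 2.38 against 34.4 CPM and Myc at 44.0 against 105 CPM in control, where 10.9% of all genes were lower (10.6% in metformin). Among nuclear partners, the corepressor gene Tle2 was at 63.0 against 10.8 CPM and 170 against 14.6 CPM, and Bcl9, a coactivator of beta-catenin, at 39.2 against 7.96 CPM and 44.3 against 8.81 CPM.

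Among keratinocytes of the metformin library, 4 of 6 measured members were higher in the hair matrix-like and inner root sheath-like cells together than in interfollicular basal-like cells, beside 24.6% of all genes. Lef1 had 1335 UMIs against 1 UMI, a ratio of 2278 with a counting interval from 408 upward. Nkd1 had 59 UMIs against 0, at least 33.6-fold higher when the 0 is set to 3 counts. Tcf7 was 4.89-fold (3.82 to 6.30) and Ctnnb1 2.59-fold (2.45 to 2.75) higher. Axin2, at 1.61-fold (1.35 to 1.93), and Tcf7l2, at 1.3-fold (1.12 to 1.51), did not reach 2-fold, and Tcf7l1 had too few UMIs. Shh, a secreted signal of the growing follicle, had 312 UMIs against 1, and Wif1 had 551 against 9 (104-fold, 54.6 to 230). Hoxc13 and Msx2 were higher too, but they are among the markers that named the hair matrix-like cells. The target genes Tnfrsf19 (93.2 and 93.5 CPM) and Bmp4 (46.8 and 44.8 CPM) had ratios near 1 between these keratinocytes.

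Compared with the stem or outer root sheath-like cells of the same library, hair matrix-like cells had more Lef1 (31.0-fold, 19.3 to 53.4), Nkd1 (7.54-fold, 2.45 to 37.7), Axin2 (4.76-fold, 3.01 to 7.94) and Tcf7 (3.03-fold, 2.08 to 4.53). In the same comparison 9.77% of all genes were higher. Tcf7l1 and Tcf7l2 were lower in hair matrix-like cells, at 0.0662 (0.0356 to 0.115) and 0.241 (0.208 to 0.278), beside 17.5% of all genes. Ctnnb1 differed little, at 0.829 (0.777 to 0.886). The contrast between the factors was also read as the ratio of Lef1 to Tcf7l1, in which the capture of each gene cancels when classes are compared. Hair matrix-like cells held 1258 Lef1 and 15 Tcf7l1 UMIs, whereas stem or outer root sheath-like cells held 17 and 95. With inner root sheath-like cells added to the hair matrix-like cells, the log2 ratio was 8.96 units (7.91 to 10) above that of the stem or outer root sheath-like cells. In control the stem or outer root sheath-like cells held 40 Lef1 and 29 Tcf7l1 UMIs.

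The stem or outer root sheath-like cells in turn stood apart from interfollicular basal-like cells by Tcf7l1, which was 57.5-fold (20.2 to 225) higher in control and 106-fold (39.9 to 396) higher in metformin. Tcf7l2 (3.56-fold and 5.63-fold) and Ctnnb1 (2.59-fold and 3.17-fold) were higher in both libraries. In control 6 of 7 members were higher, beside 14.6% of all genes, since Lef1 (106-fold, 33.7 to 535), Tcf7 (10.8-fold, 7.72 to 15.1) and Nkd1 (19 against 1 UMI) were higher as well, and 0 members were lower, beside 8.14%. In metformin 3 of 5 measured members were higher, beside 21.9% of all genes, and Axin2 was lower at 0.350 (0.210 to 0.552), beside 7.4% of all genes.

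In the stem or outer root sheath-like class Lef1, Tcf7, Axin2 and Nkd1 were lower in metformin, 4 of 7 members, whereas 4.97% of all genes in this class were lower by at least 1.5-fold with an interval that excluded 1. Lef1 had 40 UMIs in 195 control cells and 17 UMIs in 497 metformin cells, a ratio of 0.163 (0.0867 to 0.294). Tcf7 had 87 and 32 UMIs, a ratio of 0.141 (0.0911 to 0.214). Axin2 had 26 and 20 UMIs, a ratio of 0.295 (0.156 to 0.550), and Nkd1 had 19 and 3 UMIs, a ratio of 0.0606 (0.0115 to 0.206). The UMIs were spread over cells, with at most 4 in any 1 cell, and a Lef1 UMI was present in 35 control and 12 metformin cells. Tcf7l1 (29.2 and 36.7 CPM), Tcf7l2 (137 and 201 CPM) and Ctnnb1 (388 and 518 CPM) did not reach 1.5-fold. No member was called higher, beside 11.7% of all genes.

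All 9 markers of this class had UMIs in both libraries, and their summed level stood at 6889 and 10024 CPM. Cd34 (61.3 and 63.7 CPM), Nfatc1 (38.2 and 38.6 CPM), Vdr (183 and 198 CPM), Cxcl14 (1622 and 1721 CPM) and Lhx2 (247 and 307 CPM) stood close together. Barx2 (111 and 459 CPM), Sox9 (294 and 626 CPM) and Krt17 (3743 and 6187 CPM) stood higher in metformin, and Postn (591 and 423 CPM) lower. The summed companion layer list (5 genes) stood at 129 and 583 CPM, the upper hair follicle list (8 genes) at 244 and 1006 CPM and the dermal papilla list (12 genes) at 147 and 99.1 CPM, of which Trps1 made up 120 and 70.6 CPM. Of the dermal sheath list (6 genes), at 10.1 and 799 CPM, nearly all came from the contractile genes Acta2 (1.01 and 202 CPM) and Tagln (9.05 and 596 CPM), whereas Col11a1, Lrrc15 and Acan were at 0 in both libraries. Krt6b of the companion layer list and Corin, Alx4 and Tbx18 of the dermal papilla list were at 0 in both libraries. The part of these differences in the result was not tested. When cells with more genes and up to 20% mitochondrial UMIs were kept, the Lef1 difference shrank from -2.62 to -1.07 on the log2 scale and all 4 genes were still called lower.

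In dermal sheath-like cells the same 4 genes were lower in metformin, beside 15.6% of all genes. The ratios were 0.218 (0.0996 to 0.450) for Lef1, 0.216 (0.120 to 0.376) for Tcf7, 0.259 (0.116 to 0.551) for Axin2 and 0.433 (0.278 to 0.673) for Nkd1. Tcf7l2 was at 226 and 310 CPM and Tcf7l1 at 65.4 and 69.5 CPM. The class itself differed between the libraries, with the summed fibroblast list (7 genes such as Col1a1) at 14907 and 38983 CPM. Of the dermal sheath markers, Itga8 was lower in metformin (90.3 and 37.7 CPM). The others were higher, among them Acta2 (707 and 2903 CPM), Col11a1 (191 and 1020 CPM) and Lrrc15 (283 and 935 CPM). Genes of the dermal papilla list went both ways in these cells. Crabp1 (72.5 and 17.8 CPM), Enpp2 (328 and 168 CPM), Inhba (84.4 and 28.0 CPM) and Trps1 (262 and 133 CPM) were lower. Corin (10.7 and 76.5 CPM) and Sox18 (51.1 and 160 CPM) were higher. The part of these shifts in the result was not tested.

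Between the libraries, Lef1 in dermal papilla-like cells had a ratio of 0.980 (0.851 to 1.13). Tcf7 was lower in metformin at 0.333 (0.204 to 0.533) and Ctnnb1 at 0.641 (0.556 to 0.739), beside 10.5% of all genes, and no member was called higher, beside 17.7%. Neither was called in the Hhip, Wif1 and Rspo3 cluster alone, where Tcf7 (39.8 and 22.1 CPM) had a ratio of 0.555 (0.267 to 1.24) and Ctnnb1 (362 and 300 CPM) of 0.828 (0.662 to 1.04). In that cluster Lef1 stood at 398 and 394 CPM, and Tcf7l2 was the 1 member called, at 1.67-fold (1.06 to 2.73) higher in metformin, beside 7.82% of all genes higher and 5.62% lower. Axin2 there had 3 and 40 UMIs, a ratio of 3.02 whose interval (0.961 to 15.2) included 1. In the Slc26a7, Notum and Crabp1 cluster, the control cells held 395 CPM of Lef1 and 79.7 CPM of Tcf7.

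Over all keratinocyte-like cells together, Lef1 was 17.3-fold (13.2 to 23.1) higher in metformin, Tcf7l1 1.90-fold and Nkd1 1.85-fold, beside 13.6% of all genes, and 0 members were lower, beside 6.49%. Without the hair matrix-like and inner root sheath-like cells Lef1 was lower in metformin at 0.523 (0.320 to 0.840) and Nkd1 at 0.284 (0.102 to 0.695), beside 5.56% of all genes, and Tcf7l1 stayed higher at 2.19-fold (1.53 to 3.18), beside 6.44%. The sign for Lef1 over keratinocyte-like cells thus depended on whether these cells were included. Of the remaining Tcf7l1 UMIs, 29 of 44 in control and 95 of 113 in metformin came from stem or outer root sheath-like cells. That class held 195 control and 497 metformin cells, and Tcf7l1 did not reach 1.5-fold within it (29.2 and 36.7 CPM). The part of these cell numbers in the Tcf7l1 ratio was not tested.

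In interfollicular basal-like, fibroblast-like and T cell-like cells no member passed 1.5-fold with an interval that excluded 1. Of all genes 2.38% were higher and 2.51% lower in interfollicular basal-like, 4.93% and 4.71% in fibroblast-like, and 4.12% and 4.06% in T cell-like cells. Axin2 was higher in metformin in cycling interfollicular basal-like cells, with 20 UMIs in 167 control cells and 77 UMIs in 343 metformin cells, a ratio of 1.97 (1.19 to 3.39) beside 2.97% of all genes. Tcf7l2 was lower in macrophage-like cells of metformin, at 29 UMIs in control and 5 UMIs in metformin, a ratio of 0.297 (0.0899 to 0.777) beside 7.86% of all genes.

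**Figure D3:**
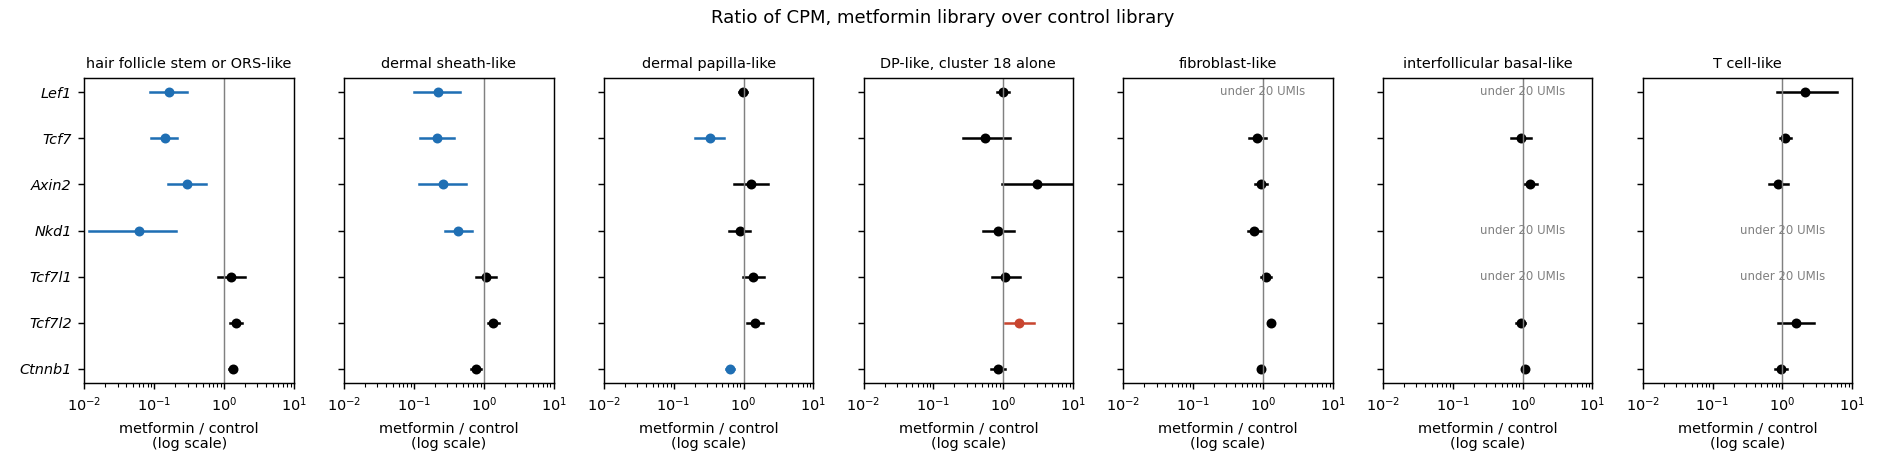
Ratio of CPM, metformin over control (horizontal log axis), of the 7 members in 6 cell classes and in 1 dermal papilla-like (DP-like) cluster. Points are ratios and bars 95% conditional binomial intervals, cut at the axis limits. Blue marks a ratio at least 1.5-fold lower and red one at least 1.5-fold higher with an interval that excludes 1, and black marks the rest. Lef1, Tcf7, Axin2 and Nkd1 are lower in stem or outer root sheath-like (ORS) and dermal sheath-like cells, and Lef1 sits near 1 in dermal papilla-like cells.

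Of the other 20 target or feedback genes, 8 of 10 measured in dermal sheath-like cells were lower in metformin, beside 15.6% of all genes, and 1, Dkk1, was higher, beside 9.93%, with a median log2 ratio of -1.51 beside -0.04 over all genes. Dkk1, a secreted Wnt inhibitor, stood at 2.38 and 18.3 CPM. Prdm1 had the lowest ratio, at 0.120 (0.0825 to 0.171), followed by Nkd2 (0.156, 0.101 to 0.235) and Apcdd1 (0.198, 0.0690 to 0.510). In stem or outer root sheath-like cells 3 of 11 were lower, beside 4.97% of all genes, and 1 was higher, beside 11.7%, with a median of 0.17 beside 0.17. The lower genes were Wif1 (0.131, 0.0828 to 0.202), Tnfrsf19 (0.141, 0.0773 to 0.246) and Znrf3 (0.325, 0.175 to 0.596), which encodes a ligase that removes Wnt receptors. The higher gene was Ccnd1 (2.02, 1.67 to 2.46), and Lgr5 did not pass. In dermal papilla-like cells 3 of 12 were higher, beside 17.7% of all genes, and 4 lower, beside 10.5%, and the clusters of the class did not always share its direction. Notum was at 530 and 207 CPM over the class and at 54.3 and 198 CPM in the Hhip, Wif1 and Rspo3 cluster, so its direction turned. Wif1 was higher in metformin in both, at 6.61-fold (5.88 to 7.45) and 6.93-fold (5.68 to 8.53), and Tnfrsf19 was lower in both, at 0.238 and 0.226. Over all keratinocyte-like cells 11 of 17 measured genes were higher, beside 13.6% of all genes, and 2 lower, beside 6.49%, with a median log2 ratio of 0.95 beside 0.12. Without the hair matrix-like and inner root sheath-like cells 2 of 16 were higher, beside 6.44%, and 3 lower, beside 5.56%, with a median of 0.03 beside 0.05. In fibroblast-like cells 2 of 13 were higher, beside 4.93% of all genes, and 0 lower, beside 4.71%. In interfollicular basal-like cells 0 of 8 were called, beside 2.38% of all genes higher and 2.51% lower.

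**Figure D4:**
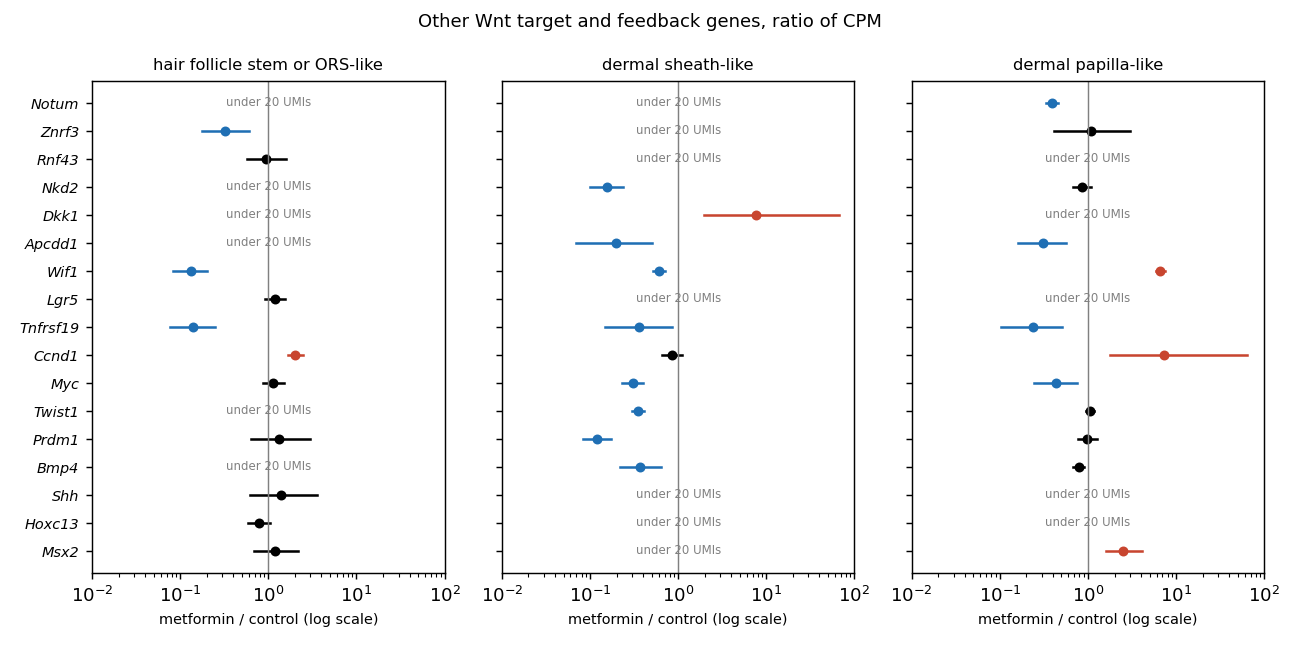
Ratio of CPM, metformin over control (horizontal log axis), of the target and feedback genes with at least 20 UMIs in 1 or more of 3 follicle classes, with 95% conditional binomial intervals. Colours are as for the members, and genes with fewer than 20 UMIs in a class are written as such. In dermal sheath-like cells 8 genes are lower and Dkk1 is higher, and Tnfrsf19 is lower in all 3 classes.

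The proteins that work with beta-catenin in the nucleus (15 genes) and those of the destruction complex (14 genes) were called less often in these classes than the target and feedback genes, by count and without a test. In stem or outer root sheath-like cells, Jup, which encodes plakoglobin, a close relative of beta-catenin, was at 179 and 360 CPM (2.01-fold, 1.71 to 2.37), whereas Pygo1 (0.413, 0.180 to 0.955) and Tle1 (0.594, 0.415 to 0.855) were lower. This was 1 of 15 measured higher, beside 11.7% of all genes, and 2 lower, beside 4.97%. Of 13 measured destruction complex genes there, Dvl2 was higher (1.95-fold, 1.04 to 3.98), 1 of 13 beside 11.7% of all genes, and 0 were lower, beside 4.97%. In dermal sheath-like cells 5 of 15 nuclear partners were lower, beside 15.6% of all genes, among them Tle4 at 0.370 (0.252 to 0.540), and 2 were higher, beside 9.93%. Of the destruction complex genes 3 of 13 were lower and 1 higher, beside the same shares. In dermal papilla-like cells 3 of 15 nuclear partners were higher, beside 17.7% of all genes, among them Tle2 at 2.70-fold (1.99 to 3.72), and 1 was lower, beside 10.5%. Of the destruction complex genes there 2 of 13 were higher and 1 lower, beside the same shares.

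Across the 39 points given by 21 classes in 2 libraries with at least 50 cells, the member pair with the most similar pattern was Tcf7l1 with Tcf7l2 (Pearson r of log2(CPM + 5) 0.82), followed by Axin2 with Tcf7 (0.72). The gene most like Lef1 of 12178 compared was Msi1 (r 0.89), followed by Scube3 (0.82) and Mex3a (0.81). Tcf7l1 was most like Tgfb1i1 (0.93), Tcf7l2 most like Maged1 (0.88), Nkd1 most like Grik5 (0.91), Ctnnb1 most like Smad5 (0.87), Tcf7 most like Ppp1cc (0.79) and Axin2 most like Ptbp1 (0.75). These are descriptions over points that share libraries and cell classes.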

How the data were processed

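Per the labels, 3′ droplet single-cell libraries of mouse skin were made, and the extraction text of the labels mentions another species, whereas the gene identifiers are those of mouse. The matrices the authors deposited hold whole-number UMI counts from Cell Ranger 4.0.0 (build GRCm38), and every barcode has at least 500 UMIs. From 71345558 and 92341365 UMIs (control and metformin), cells were kept that had 300 to 3000 genes, 800 or more UMIs and no more than 8% mitochondrial UMIs, limits that the labels do not state. The gene limit removed 1460 and 2349 barcodes, and Scrublet removed 241 and 297 doublets (scanpy 1.11.5, expected rate 8%). Leiden clustering (leidenalg 0.10.2, resolution 1) used 2000 variable genes, 30 components and 20 neighbours, without correction between libraries. Clusters were named by the highest mean log2 fold over 29 marker lists with at least 3 detected markers, a rule set after the clusters were seen. 

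UMIs were summed per class and library. Ratios have exact conditional binomial and shares exact Clopper-Pearson intervals at 95%. A member was called at 20 or more UMIs in both groups together, a fold of 1.5 between libraries or 2 between classes, and an interval excluding 1, in classes of at least 50 cells. For bounds, 3 counts stood in for 0. The calls were tried on simulated Poisson counts, which share the counting model of the intervals. The simulation held no differences between cells, animals or libraries beyond counting and so says nothing about them. Python 3.11.15, numpy 2.4.6 and scipy 1.17.1 were used. Named genes are the 7 members, up to 4 of the largest ratios of each pathway list, and the genes of highest Pearson correlation with each member among those with at least 200 counts. The genes named for dermal papilla-like against fibroblast-like cells, Jup, Dvl2, Tle2, Lgr5 and the marker genes given with values were singled out after their values were seen. The members and gene lists were chosen with earlier results of these data known.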

Additional observations from a re-analysis of the deposited data

Results flagged for a closer look

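Axin2 was higher in metformin than in control in cycling interfollicular basal-like cells (ratio 1.97), and lower in stem or outer root sheath-like cells (0.295) and dermal sheath-like cells (0.259). The opposite directions drew attention, and the difference between the classes was not tested.

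The barcodes above the limit of 3000 genes, which the comparisons leave out, held more of every member in metformin than in control. For these sums the barcodes were not split into cell classes, and the share of all genes that were higher was not computed. The mix of cell classes did differ when such barcodes, and cells with up to 20% mitochondrial UMIs, were kept in the clustering. The hair matrix-like cluster then held 35 control and 1248 metformin cells, and the inner root sheath-like cluster 1 and 330. The part of this mix in the sums was not tested. In 2349 metformin barcodes the levels were 57.1 CPM for Lef1, 20.9 CPM for Axin2, 18.4 CPM for Tcf7, 9.30 CPM for Tcf7l1, 65.8 CPM for Tcf7l2, 292 CPM for Ctnnb1 and 5.60 CPM for Nkd1. In 1460 control barcodes they were 5.14 CPM for Lef1, 11 CPM for Axin2, 10.2 CPM for Tcf7, 3.16 CPM for Tcf7l1, 33.4 CPM for Tcf7l2, 182 CPM for Ctnnb1 and 2.36 CPM for Nkd1.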

How the results depend on the processing

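No paired analysis was possible because control and metformin are single libraries. Of 98 summary values under alternatives 82 stayed within 1.5 times of the reported count or within its interval, and of 238 single-gene ratios 219 stayed within their interval, 17 moved and 2 reversed. The 4 lower members of the stem or outer root sheath-like class and the 4 of the dermal sheath-like class stayed 4 in number under all 8 alternatives run on them. With cells above 3000 genes and up to 20% mitochondrial UMIs kept, all 7 members were higher in metformin over all keratinocyte-like cells in place of 3, 1 in place of 2 was lower in dermal papilla-like cells, and the Lef1 to Tcf7l1 difference was 7.43 log2 units in place of 8.96. The hair matrix-like cluster then held 35 control and 1248 metformin cells. Shares of all genes called were computed only for the main setting and for the alternatives added after seeing the data. The other counts of members therefore have no such share beside them. With each library clustered on its own, members called higher in metformin numbered 1 in stem or outer root sheath-like, 2 in dermal papilla-like and 1 in dermal sheath-like cells, in place of 0 in each. With means over cells, which have no interval and are counted by fold alone, 1 member was higher in dermal papilla-like cells. Chosen after seeing the data, cluster 18 (Hhip, Wif1, Rspo3) alone gave 1 higher and 0 lower members in dermal papilla-like cells. Leaving out the hair matrix-like and inner root sheath-like cells, likewise an alternative added after seeing the data, gave 1 higher and 2 lower members in keratinocyte-like cells, with the log2 ratios of Lef1 and Nkd1 reversed to -0.94 and -1.81. Thinning to 1500 UMIs lowered the share of cells with a Lef1 UMI to 42.2% and 39.7% (dermal papilla-like) and 25.9% (hair matrix-like), and with a Tcf7 UMI to 17.3% and 21.4% (T cell-like). Of the 14 highest classes of a member in a library, the wide filter kept 11, clustering at resolution 2 kept 13 and means over cells kept 11. Levels under 1 CPM rest on a few UMIs.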
